A study of Danio rerio with 6 samples.

Results

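Apolipoprotein E, clusterin and the genes of amyloid processing were followed here through 5 zebrafish genes: apoeb, clu, appa, bace1 and bace2. Expression was measured with 1-colour NimbleGen arrays, 1 array for each of 6 brains of male AB zebrafish at 12 months of age. In 3 fish (lead 1 to 3) the embryos had been held in 100 ppb lead acetate from less than 2 to 72 hours after fertilization, and in the other 3 (control 1 to 3) they had been held at 0 ppb. Both groups were reared at 28 °C without lead after that time, so the comparison asks how these genes stand in the aged brain long after an embryonic exposure. Female brains were not analysed here. Each sample was a single fish, and tank sharing within a group is not stated, and the tests reflect only how these fish vary.

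An array target is 1 transcript sequence read by up to 3 probes, and 11 of the 38489 targets were taken as the 5 genes, with 33 of the 113549 probes. The symbol field of the array annotation named 4 of them, for apoeb and clu. A RefSeq accession named 2 more, for bace1 and bace2, and an EST clone name matched through current synonyms named 5, for appa and bace2. A clone name can belong to a neighbouring gene, so the 5 targets named in that way are the least certain. Gene positions below are those in the array files, where unplaced pieces of the Zv7 assembly carry Zv7 names. Targets whose name starts with OTTDART carry other sequence names, so their positions may be on other coordinates. They are not compared with the positions of other targets. Values are log2 of the RMA intensity, a normalised and summarised fluorescence, and differences are lead minus control. Levels of different targets depend on their probes and are not compared with each other.

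Apolipoprotein E is a secreted lipid carrier that binds receptors of the LDL receptor family, and in zebrafish apoeb is widely used as a marker of microglia. Clusterin, also called apolipoprotein J, is a secreted chaperone that binds misfolded proteins and lipids. The amyloid precursor protein is a membrane protein of neurons that can be cut by an alpha-secretase or by the beta-secretase BACE1, after which gamma-secretase releases the final fragments. BACE2 is the close relative of BACE1, and in zebrafish bace2 is known for its role in pigment cells. APOE, CLU and APP are linked to Alzheimer disease in humans.

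The arrays had medians of 10.96 to 11.02 on the log2 scale, and the 95th percentile of the 27114 random-sequence probes, taken as the background limit, lay between 10.41 and 10.91. Of the 11 targets 7 were above that limit on all 6 arrays, and 4, the second of apoeb and the 3 of bace2, on 0. Of the 9 lists of cell type markers, those of neurons were above the limit on all arrays for 13 of 13 measured genes and those of liver for 1 of 9. The 3 lead arrays were scanned at the last positions and the 3 control arrays at the first, and an effect of position cannot be told apart from one of exposure. Lead 1 and control 1 also lacked a prefix in their image names that 4 arrays had, and this was handled as a possible batch. Of the random-sequence probes, 23.2% had an unadjusted p under 0.05 between the groups.

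In limma 0 of the 11 targets passed an adjusted p of 0.05 over all targets, as did 0 of all 38489, a share called of 0%. In the 11 targets 1 was at unadjusted p under 0.05, against 7.19% of all targets. That one was lower in lead brains, which makes 9.09% of the 11 against 3.00% of all targets called in that direction. Groups that did not overlap, with lead brains lower, were seen for 2 of 11 targets, or 18.2%, against 6.09% of all targets. With lead brains higher they were seen for 0 of 11, against 7.01% of all targets. The 2 lower targets were the first ones of apoeb and clu. The 11 targets had a median difference of -0.13, beside 0.00 for all targets, and 9 of 11 were lower in lead brains, beside 50.8% of all targets. Targets of one gene share transcripts, so these are not 11 independent values.

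**Figure D1:**
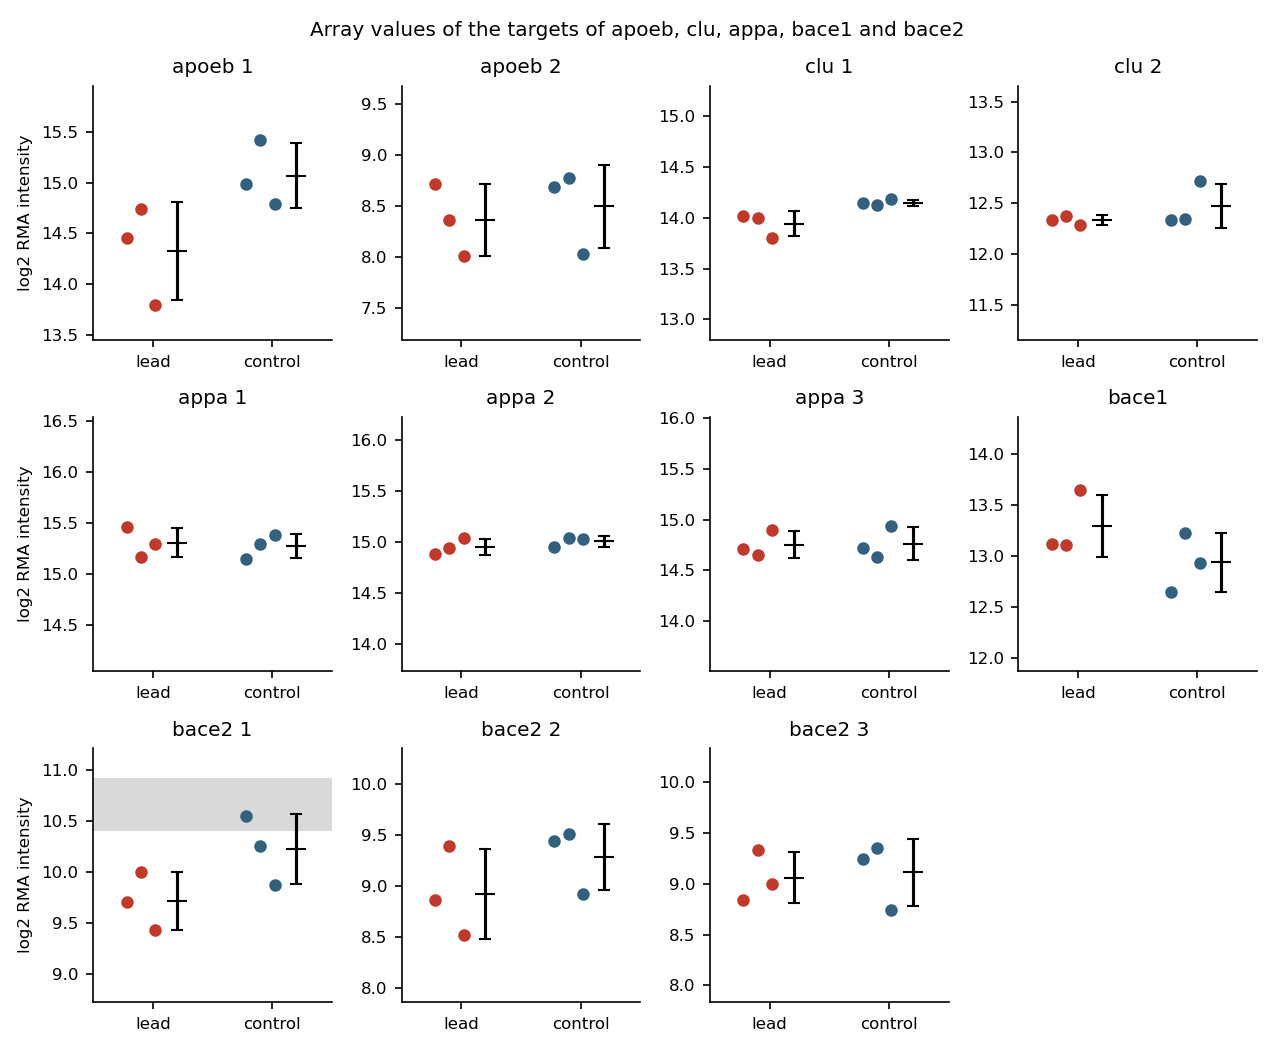
Log2 RMA intensity (vertical axis) of each of the 11 targets in lead (red) and control (blue) brains, 1 panel for each target and 1 point for each array, ordered by replicate number; the horizontal mark and bar are the group mean and SD, the vertical range is the same in every panel, and grey shows the range of the background limit over the arrays. The 3 lead values of apoeb 1 lie between 13.80 and 14.74 and the 3 control values between 14.79 and 15.42, and the groups overlap in every panel except those of apoeb 1 and clu 1.

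The lipid carrier gene apoeb was lower in all 3 lead brains on its bright target, and this was the largest difference among the 11 targets. This first target, OTTDART00000026608, covers 18003618 to 18006335 of chromosome 16. Its values were 14.45, 14.74 and 13.80 in lead 1 to 3, against 14.99, 15.42 and 14.79 in control 1 to 3. Lead 3 was the lowest and control 2 the highest, and the highest lead value lay just under the lowest control value. The group means were 14.33 ± 0.49 in lead and 15.07 ± 0.32 in control brains (SD, n = 3 each). The difference of -0.74 (SE 0.28, 95% interval -1.40 to -0.08) is 0.599 times the control signal. Its unadjusted p was 0.0333 in limma and its adjusted p 0.674, so the call does not survive the correction over all targets. An exact permutation test of this value gave p = 0.1, 2-sided, the smallest that 3 arrays against 3 allow. Any target whose groups do not overlap gives this p, so the test adds nothing to the lack of overlap. Such targets were 6.09% of all with lead brains lower and 7.01% with lead brains higher.

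The size of the apoeb difference depended on lead 3. Without lead 3 it was -0.47, and without lead 2 it was -0.95. With control 1, control 2, lead 1 or lead 3 left out, the unadjusted p in limma was 0.0549 to 0.109. Without control 3 this p was 0.0303 and without lead 2 it was 0.0141. Within the 4 arrays with the image name prefix the difference was -0.84, with an unadjusted p of 0.0909 in limma. Between the 2 arrays without the prefix the difference was -0.54, with no test. With this prefix fitted as a block the unadjusted p was 0.0514. Of the 989 targets with a mean log2 signal at least that of apoeb, itself included, 1 had a difference as low, namely apoeb, and 2 had a p as small. That set holds no target dimmer than apoeb. Among all 38489 targets the p of apoeb stood at rank 1900, counted from the smallest. The residual SD of this target, 0.41, stood at percentile 84.4 of all targets, so its spread between fish was wide. At 15 or more on the log2 scale a signal is near the top of the range, since the brightest probe value on any array was 15.92.

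The 3 probes of this target gave -1.04, -0.59 and -0.46. Probe 1015, counted by its number in the array design, read 14.45, 14.35 and 13.49 in lead brains, against 15.19, 15.42 and 14.79 in control brains. That difference of -1.04 (SE 0.30) had an unadjusted p of 0.0123 and an adjusted p of 0.316 over all probes in limma. Probe 1257 read 14.89, 15.08 and 14.12 in lead brains, against 15.32, 15.35 and 15.19 in control brains, a difference of -0.59 (SE 0.26, unadjusted p 0.0609, limma). The groups of both bright probes did not overlap. Probe 67 read 8.38, 9.33 and 9.80 in lead brains, against 9.45, 10.15 and 9.29 in control brains, below the background limit on every array. Its groups overlapped.

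A second apoeb target, OTTDART00000026609, at 18003807 to 18005640 of chromosome 16, did not rise above background. It read 8.71, 8.36 and 8.01 in lead brains, against 8.68, 8.77 and 8.03 in control brains. The difference of -0.13 (SE 0.26) is one between signals in the range of random-sequence probes and not a fold of a transcript level, and all 3 of its probes were below the limit on every array.

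The chaperone gene clu had slightly lower values in lead brains on both of its targets, and neither difference was called. The first clu target, OTTDART00000006889, at 35501310 to 35514689 of chromosome 20, read 14.02, 14.00 and 13.80 in lead brains, against 14.14, 14.12 and 14.18 in control brains. The groups did not overlap, although the gap between them was small. Means were 13.94 ± 0.12 in lead and 14.15 ± 0.03 in control brains (SD, n = 3 each). The difference of -0.21 (SE 0.12, 95% interval -0.50 to 0.08) had an unadjusted p of 0.137 and an adjusted p of 0.768 in limma, so it was not called. Its residual SD of 0.09 stood at percentile 7.31 of all targets, and the difference was -0.12 between the 2 arrays without the prefix and -0.25 in the 4 with it. All 3 of its probes were lower in lead brains, by differences of -0.13, -0.11 and -0.22, and the groups of 2 of them did not overlap.

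The second clu target, OTTDART00000006890, at 35501177 to 35506155, overlaps the first on the chromosome and differed by -0.14 (SE 0.15, unadjusted p 0.387, limma). It read 12.34, 12.38 and 12.29 in lead brains, against 12.34, 12.35 and 12.72 in control brains. Only control 3 stood above the rest, and without control 3 the difference was -0.01. Its 3 probes gave differences of -0.16, -0.09 and -0.16. A target named only by the homologue CLU, BC059667.1, also on chromosome 20, differed by -0.10 (SE 0.13), and another so named, TC257176, by 0.17 (SE 0.19). The groups of both overlapped, and whether these targets read the clu locus was not tested. The 2 targets named for the homologue APOE, both on chromosome 19, were at background, with differences in signal of -0.04 and -0.36.

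The precursor gene appa showed no difference that exceeded the spread between fish on any of its 3 targets, which read between 14.63 and 15.46 on a scale whose brightest probe value was 15.92. The first, ZV700S00003780, at 22879362 to 22879856 of chromosome 1, read 15.46, 15.17 and 15.30 in lead brains, against 15.15, 15.30 and 15.38 in control brains. Its difference was 0.03 (SE 0.14, 95% interval -0.29 to 0.36). The second, ZV700S00001400, at 22849390 to 22877553, also carries the map marker appa and the homologue name APP. It read 14.88, 14.94 and 15.04 in lead brains, against 14.95, 15.04 and 15.03 in control brains, a difference of -0.06 (SE 0.12, 95% interval -0.33 to 0.22). The residual SD of that target, 0.06, stood at percentile 3.17.

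The third appa target, TC250279, for which the files give no position, read 14.71, 14.65 and 14.90 in lead brains, against 14.72, 14.63 and 14.94 in control brains. The difference was -0.01 (SE 0.14, 95% interval -0.35 to 0.33). One of its probes, number 157, read 12.01 on lead 1, against 14.04 and 14.75 on the other two lead arrays and 13.95 to 14.33 on the control arrays. The summary of the target hardly carries this single low reading. A target that holds only the map marker appa, ENSDART00000081472, read 14.62, 14.96 and 15.21 in lead brains, against 14.97, 15.01 and 15.06 in control brains, with a difference of -0.08 (SE 0.17). A target on chromosome 2 named for the homologue APP had a summary value below the limit on every array, at 8.72, 8.88 and 9.03 in lead brains, against 8.34, 8.49 and 8.36 in control brains. The groups did not overlap, and this signal differed by 0.48 (SE 0.13, unadjusted p 0.0089, adjusted p 0.606, limma). Of its 3 probes only number 88 was above the limit on all arrays, with a difference of 0.33 (SE 0.22) and groups that overlapped, and the dim probes gave 0.58 and 0.06.

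The beta-secretase gene bace1 read higher in all 3 lead brains than in 2 of the 3 control brains, and the groups overlapped. Its target, NM_205704, at 42837729 to 42843139 of chromosome 15, read 13.12, 13.11 and 13.65 in lead brains, against 12.65, 13.23 and 12.93 in control brains. Lead 3 was the highest value and control 1 the lowest. Means were 13.29 ± 0.31 in lead and 12.93 ± 0.29 in control brains (SD, n = 3 each). The difference of 0.36 (SE 0.22, 95% interval -0.16 to 0.87) had an unadjusted p of 0.144 and an adjusted p of 0.771 in limma. It was 0.18 without lead 3 and 0.51 without control 2, and 0.47 between the 2 arrays without the prefix and 0.30 within the 4 with it. The 3 probes gave differences of 0.57, 0.21 and 0.17.

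The bace2 targets were at background, so the values that follow are differences of signals near those of random-sequence probes and not folds of a transcript level. The first, NM_001005991, lies on an unplaced piece of the assembly, Zv7_NA621, at 1867 to 3604. It read 9.70, 10.00 and 9.43 in lead brains, against 10.55, 10.25 and 9.87 in control brains, a difference of -0.51 (SE 0.22) with an unadjusted p of 0.0578 and an adjusted p of 0.707 in limma. Control 1 was the highest and lead 3 the lowest, and the groups overlapped. The second, TC249730, differed by -0.37 (SE 0.27), and by -0.17 without lead 3, and the third, ZV700S00002540, at 45748366 to 45748905 of chromosome 15, by -0.05 (SE 0.21).

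Of the 9 bace2 probes, 2 were above the limit on all 6 arrays, and neither was lower in lead brains. Probe 1550 of the second target read 12.10, 12.64 and 11.75 in lead brains, against 12.19, 12.09 and 11.47 in control brains, a difference of 0.25 (SE 0.29). Probe 1 of the third target differed by 0.00 (SE 0.22). The low values came from dim probes, with -0.63 for probe 900 of the first target (unadjusted p 0.0146), -0.64 for probe 1364 of the second (0.0141) and -0.41 for probe 303 of the third (0.0361), all by limma and with adjusted p from 0.327 to 0.415. Markers of pigment cells, the cells in which bace2 acts in zebrafish, had a mean level of 9.78 to 9.99 over the lead arrays and of 9.85 to 10.34 over the control arrays, and of 7 measured genes 4 were below the limit on all arrays. The part of pigment cells in the bace2 signal was not tested.

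**Figure D2:**
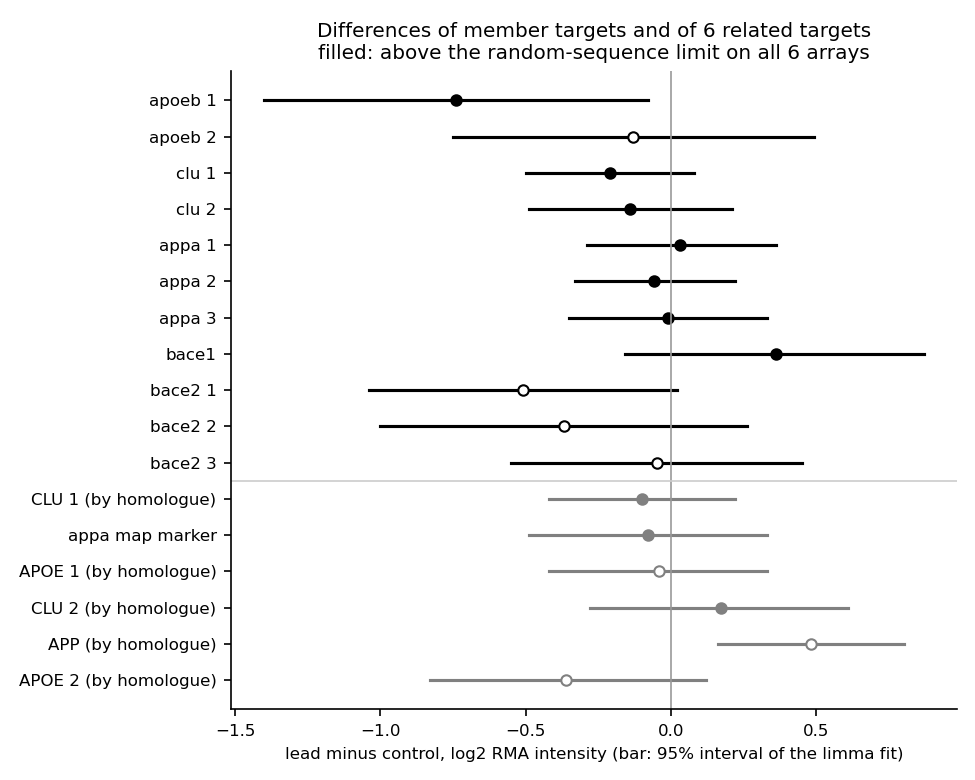
Difference in log2 RMA intensity, lead minus control (horizontal axis), for the 11 targets of the 5 genes (black) and for 6 related targets named by a homologue or a map marker only (grey), with the 95% interval of the limma fit as a bar; filled circles are targets above the background limit on all 6 arrays. Among the 11 targets only the interval of apoeb 1, from -1.40 to -0.08, does not reach 0, and the 3 open circles of bace2 lie at -0.51, -0.37 and -0.05.

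Among single probes, 0 of the 33 passed an adjusted p of 0.05, against 0.000881% of all 113549. At unadjusted p under 0.05 there were 4 of the 33, or 12.1%, against 11.0% of all probes. All 4 were lower in lead brains, and 3 of them were dim bace2 probes. Probes whose groups did not overlap, with lead brains lower, numbered 8 of 33, or 24.2%, against 8.24% of all probes. With lead brains higher there were 0 of 33. The share in that direction was not counted over all probes, nor over those above the limit. Of the 22 probes above the limit on all arrays, 14 were lower, or 63.6%, against 51.7% of all 52830 such probes. In 1 of the 22, or 4.55%, the unadjusted p was under 0.05, against 4.47%, and in 5, or 22.7%, the groups did not overlap with lead brains lower, against 5.66%. Those 5 belonged to the first apoeb target, the first clu target and the second appa target. Probes of a target read the same transcripts and are not independent values.

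**Figure D3:**
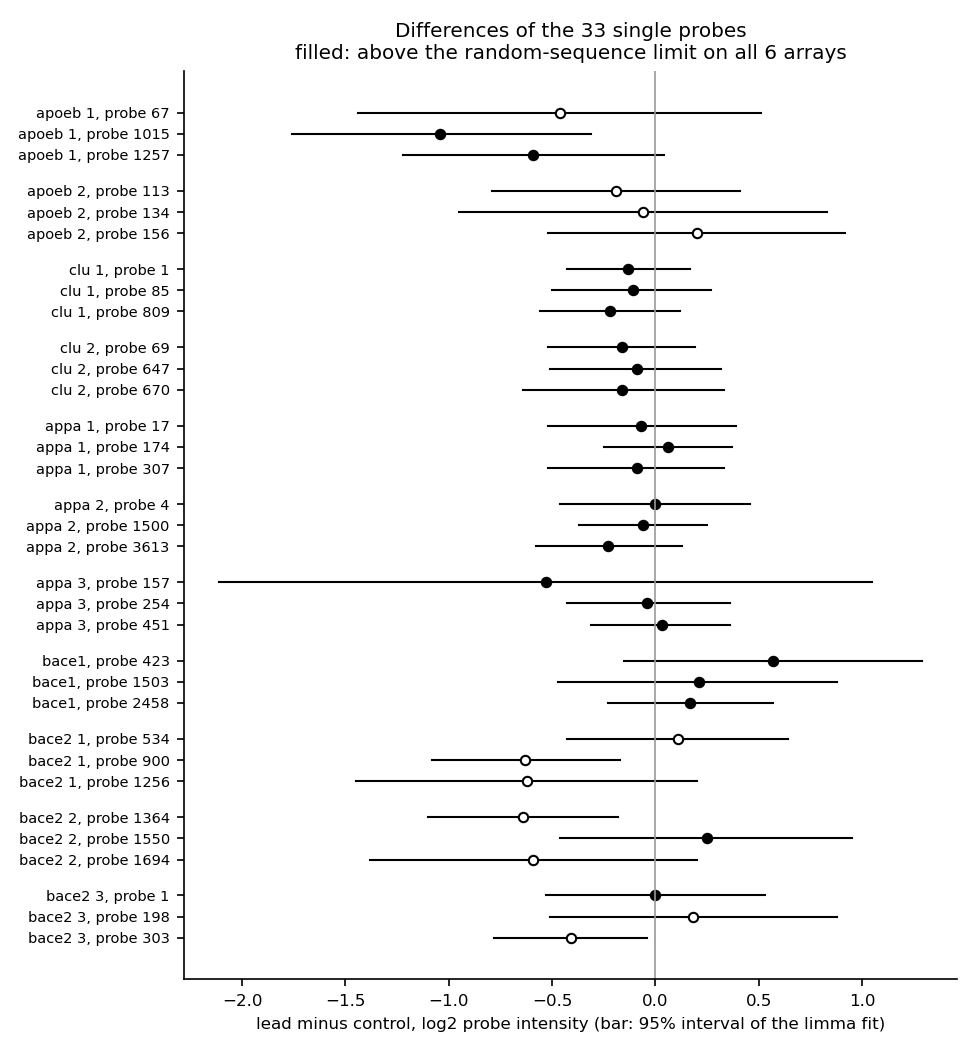
Difference in log2 probe intensity, lead minus control (horizontal axis), of the 33 single probes, grouped by target and labelled with the probe's number in the array design, with the 95% interval of the limma fit as a bar; filled circles are probes above the background limit on all 6 arrays. Probe 1015 of apoeb lies lowest at -1.04, the 3 probes of bace1 lie between 0.17 and 0.57, and the 3 low bace2 probes, 900, 1364 and 303, are open circles.

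The rest of the pathway was described through 9 lists, for which 74 of 129 listed genes or their human homologues had a named target. A gene without a zebrafish symbol on the array was read through a target named for its human homologue alone, in capitals below, in 25 of the 74 cases. None of the 74 passed the adjusted threshold in limma, and 4, or 5.41%, were at unadjusted p under 0.05, against 7.19% of all targets. The median difference was -0.04, with 33 genes higher and 41 lower, beside 0.00 for all targets. Groups did not overlap for 3 lower genes, or 4.05%, against 6.09% of all targets, and for 2 higher genes, or 2.70%, against 7.01%.

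Among the other apolipoprotein genes, 6 of 9 read higher, the median was 0.08, and 7 of the 9 were at background on every array. The APOC1 homologue was the 1 bright member. It read 13.04, 13.64 and 11.77 in lead brains, against 13.52, 14.14 and 12.84 in control brains, a difference of -0.68 (SE 0.52, unadjusted p 0.231, limma). Its low value on lead 3 and its high value on control 2 are also the extremes of apoeb, and all 3 APOC1 probes gave differences between -0.70 and -0.61. In the GRCz12tu annotation of RefSeq apoc1 is the next gene after apoeb. The APOC1 target lies at 24400265 to 24401649 of chromosome 16, a position that may not share coordinates with that of the OTTDART apoeb target. That it reads the neighbouring apoc1 was not tested. The apolipoprotein gene apoa4b.1, on an OTTDART target at 17956944 to 17958854 of chromosome 16, differed by 0.01 (SE 0.25) at background on every array. Without lead 3 the APOC1 difference was -0.16. APOH, at -0.56 (SE 0.14, unadjusted p 0.00489), was at background on every array, as were apobb.1 at -0.29 (SE 0.16) and apodb at 0.16 (SE 0.20).

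The lipoprotein receptor genes, which include the receptors that take up apolipoprotein E, had a median of 0.04, with 5 of 10 higher, and 0 of the 10 had an unadjusted p under 0.05 in limma. The smallest p was that of LRP2, the homologue of a large endocytic receptor, with a difference of 0.42 (SE 0.22, unadjusted p 0.0926) in a signal at background on every array. LRP1B, at -0.39 (SE 0.52), was above the limit on 1 array, and a second LRP1B target, at background on every array, gave 0.22. The scavenger receptor homologue SCARB1 differed by 0.20 (SE 0.22), and by 0.03 without control 2 or without lead 1. LRP8, the homologue of an apolipoprotein E receptor of neurons, differed by -0.23 (SE 0.19), and by 0.32 with the probes averaged instead of the RMA value. The receptor gene vldlr differed by -0.02 (SE 0.12).

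Among genes of lipid transfer and cholesterol handling, 7 of 11 were lower, with a median of -0.17. The lipoprotein lipase homologue LPL read 9.99, 11.84 and 10.44 in lead brains, against 12.05, 12.50 and 11.43 in control brains. Lead 2 lay among the control values. The difference of -1.23 (SE 0.50) had an unadjusted p of 0.0434 and an adjusted p of 0.682 in limma, and 4 of the 6 arrays were above the limit. Its probes gave -1.37, -0.95 and -0.95 (unadjusted p 0.0796, 0.0631 and 0.0889, limma), the last at background on every array. With the probes averaged instead of the RMA value the LPL difference was -1.09. The unadjusted p in limma was 0.0913 to 0.136 without control 1, control 2, lead 1 or lead 3, and under 0.05 without control 3 or lead 2. The phospholipid transfer protein gene pltp differed by -0.38 (SE 0.18, unadjusted p 0.0725) and hmgcra, the rate-limiting enzyme of cholesterol synthesis, by -0.43 (SE 0.22, unadjusted p 0.0935). The other hmgcra targets gave -0.32 and -0.29. The lecithin-cholesterol acyltransferase gene lcat differed by -0.35 at background on every array, and its other targets, also at background, gave -0.09 and -0.14.

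Of 9 genes of the precursor family and its adaptors 6 were lower, the median was -0.09, and 0 had an unadjusted p under 0.05. The precursor-like homologue APLP1 differed by -0.33 (SE 0.45), with 15.11 on lead 2 against 13.85 and 13.83 on the other two lead arrays, and by -0.04 without control 1. The related gene aplp2 differed by -0.17 (SE 0.36), appbp2 by -0.14 (SE 0.12) and itm2cb by 0.19 (SE 0.14). A second appbp2 target, above the limit on all arrays, gave 0.01. The gene itm2bb differed by -0.34 (SE 0.33), and by -0.04 without lead 3. Of the alpha-secretases, adam10b differed by -0.01 (SE 0.15) and adam17a by 0.15 (SE 0.24), the last 0.03 to 0.35 with an array left out. The ADAM10 homologue differed by -0.21 (SE 0.15), with 0.03 on a second target at background.

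The gamma-secretase subunits had a median of 0.04 over 5 genes. The catalytic subunit homologue PSEN2 read 12.67, 12.45 and 12.53 in lead brains, against 11.97, 11.96 and 12.23 in control brains. The groups did not overlap, and the difference of 0.50 (SE 0.14) had an unadjusted p of 0.00884 and an adjusted p of 0.606 in limma. Its 2 bright probes gave differences of 0.46 and 0.56 and the dim one -0.06, and with the probes averaged instead of the RMA value the difference was 0.32. The nicastrin gene ncstn differed by 0.33 (SE 0.27), and by 0.13 without control 1 or without lead 3. The subunit gene psenen differed by 0.04 (SE 0.20), and aph1b was at background.

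In the list for beta-secretase trafficking 6 of 10 genes read higher, and the median was 0.09. The higher genes include furina (0.13) and the FURIN homologue (0.04). Their targets overlap on chromosome 14, so they may read the same locus. The adaptor gene gga1 read 11.55, 11.36 and 11.57 in lead brains, against 11.06, 11.08 and 11.29 in control brains, a difference of 0.35 (SE 0.13) with an unadjusted p of 0.0331 and an adjusted p of 0.674 in limma. Of its 3 probes 1 gave 0.45, with groups that did not overlap, and the other two gave 0.14 and 0.02. The related adaptor gene gga3a differed by 0.43 (SE 0.21, unadjusted p 0.0808, limma). Its other targets gave 0.08 and 0.21 and were above the limit on only 1 and 2 arrays. The sorting nexin homologue SNX6 differed by 0.41 (SE 0.24), rtn4b, at background, by 0.14 (SE 0.16) and the retromer gene vps35 by -0.11 (SE 0.12).

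For genes that break down or bind amyloid, the median over 8 genes was -0.08. The insulin-degrading enzyme homologue IDE differed by 0.07 (SE 0.12), with 0.00 to 0.22 on its other targets, of which that at 0.10 was at background. The cathepsin D gene ctsd differed by -0.11 (SE 0.15), with -0.27 to -0.14 on its other targets. A ctsd target at -0.27 was at background on every array. The cystatin gene cst3 differed by -0.16 (SE 0.15). The complement gene c1qa read 11.15, 12.01 and 8.60 in lead brains, against 10.66, 11.65 and 11.42 in control brains, and its difference of -0.65 (SE 0.82) was 0.34 without lead 3. The related c1qb, at background, differed by -0.69 (SE 0.51), and by -0.27 without lead 3. Among tau and other Alzheimer risk genes, 2 of 9 were higher, with a median of -0.10. The tau homologue MAPT differed by -0.07 (SE 0.11), with 0.03 on a second target. PICALM differed by -0.15 (SE 0.12), cd2ap by -0.13 (SE 0.12) and CDK5, at background, by -0.36 (SE 0.24). The brightest bin1b target, which has 1 probe, differed by 0.19 (SE 0.14), the other bin1b targets by -0.04 to 0.22, and the mean of all of them by 0.10. Some of the other bin1b targets were at background on every array.

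**Figure D4:**
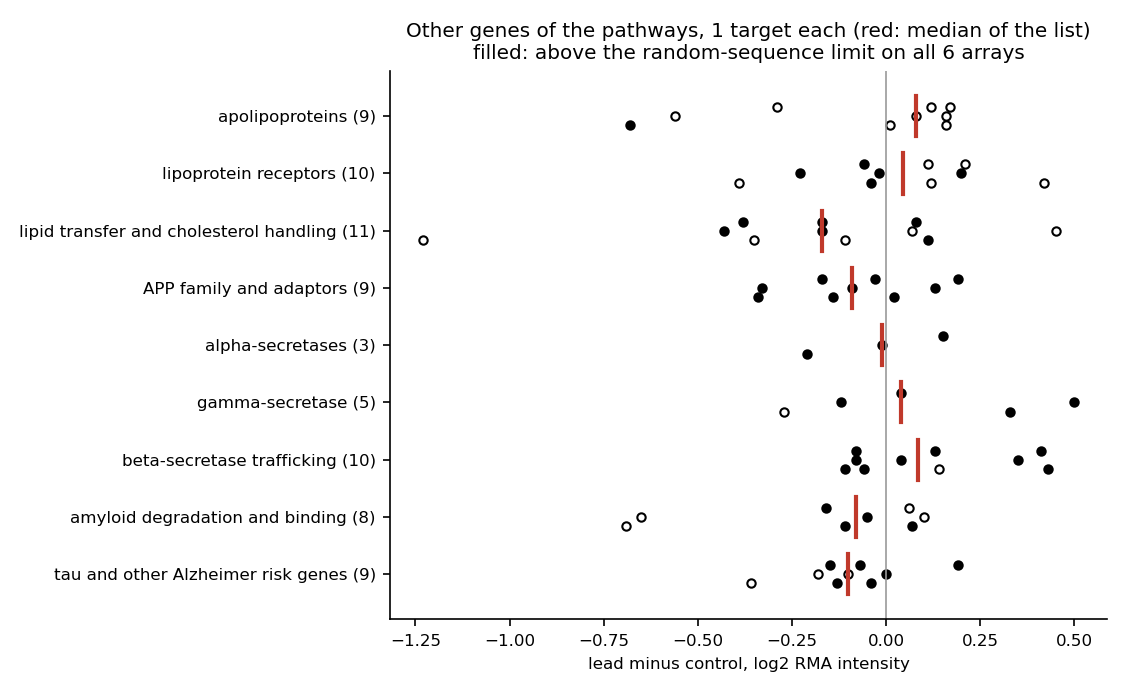
Difference in log2 RMA intensity, lead minus control (horizontal axis), of 74 genes in 9 pathway lists (rows, with the number of genes measured), 1 target each; filled circles are above the background limit on all 6 arrays and the red bar is the median of the list. The medians lie between -0.17 and 0.09, and the lowest gene is LPL at -1.23.

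The cell types that make apolipoprotein E and clusterin in the brain were followed through marker lists. In bulk tissue fewer cells of a type and less RNA per cell cannot be told apart. The astroglia markers were lower in 9 of 11 genes, with a median of -0.18, and their mean level was 13.53, 13.80 and 13.38 on lead 1 to 3, against 13.83, 13.80 and 13.68 on control 1 to 3. Lead 3 and lead 1 were the lowest arrays, as for apoeb, and lead 2 matched the control arrays. The microglia markers had a mean level of 9.86, 10.43 and 9.15 in lead brains, against 9.78, 10.14 and 9.98 in control brains, and 3 of 13 were above the limit on all arrays. Lead 3 was again lowest, but lead 2 was highest, so the groups of this list overlapped. Of the microglia markers 7 of 13 were lower, and the median was 0.00. Of the 13, 5 were read through homologue names. The csf1ra target and that of the CSF1R homologue have the same position but were counted separately. The targets of c1qa, c1qb and c1qc also stand in the list of genes that break down or bind amyloid, so the values of these lists are not separate.

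Markers of ependyma and choroid plexus read lower for 5 of 6 genes, with a median of -0.31, and had a mean level of 10.80, 11.42 and 10.66 in lead brains, against 11.40, 11.07 and 11.35 in control brains. Of the 6 genes 2 were above the limit on all arrays, and lead 2 was the highest array of the list. Neuron markers had a median of -0.05 and mean levels of 14.75, 14.70 and 14.76 in lead brains, against 14.79, 14.76 and 14.72 in control brains. Blood markers had a median of 0.09. Their mean level varied from 11.09 to 12.21 over the lead arrays and from 10.97 to 12.50 over the control arrays, with no split by group. Medians were 0.01 for oligodendrocyte markers and 0.01 for markers of vessels and meninges. They were -0.07 for pigment cell markers and -0.13 for liver markers, and liver markers were at background for 7 of 9 genes. Whether these cell types account for the apoeb or clu values was not tested.

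**Figure D5:**
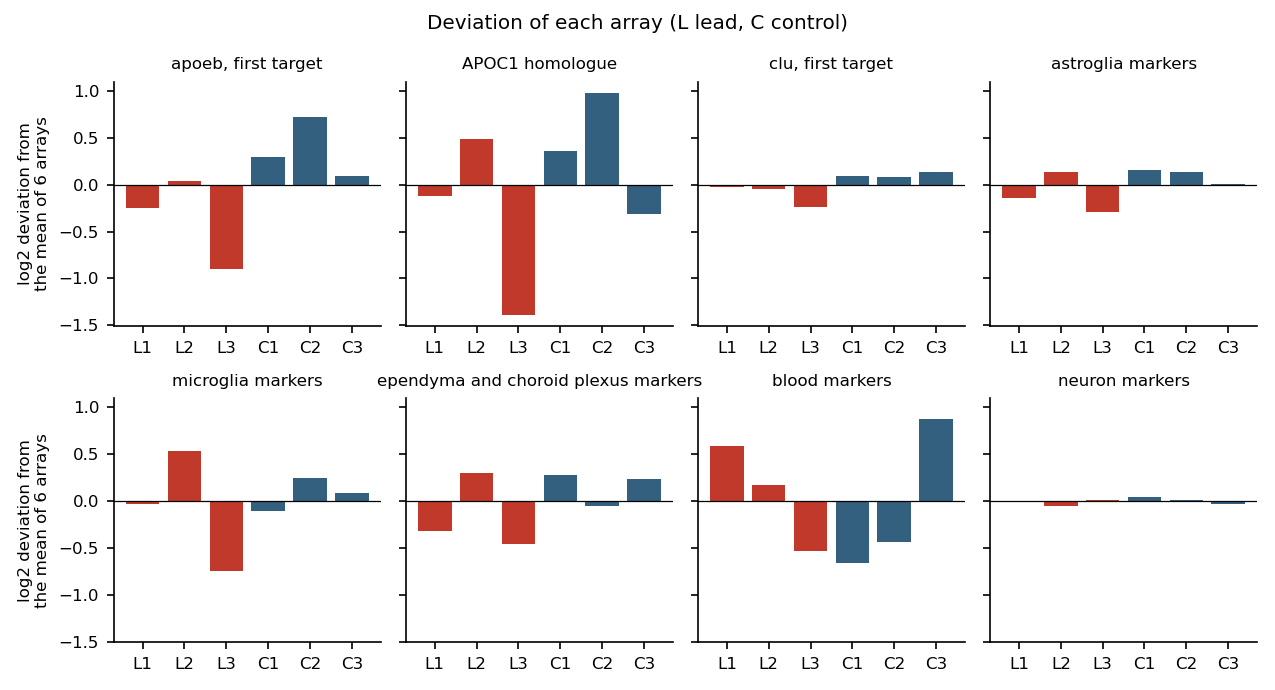
Deviation of each array from the mean of the 6 arrays on the log2 scale (vertical axis), for the first targets of apoeb and clu, the APOC1 homologue and the mean of 5 marker lists, with lead arrays (red, L1 to L3) left of control arrays (blue, C1 to C3). On L3 apoeb, APOC1, clu and the markers of astroglia, microglia, ependyma and choroid plexus, and blood all lie below their means. Neuron markers differ little between arrays.

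The genes whose values ran most like those of each member were found among 6063 genes with a zebrafish symbol and a bright target, by Pearson's r over the 6 arrays. Such r values describe these 6 arrays, which share the group difference, and the best of 6063 is high by selection. For apoeb they were amn1, sdcbp and nkd2b, with r from 0.993 to 0.997. Their differences were -0.44, -0.24 and -0.27, a direction that follows from their selection by likeness to apoeb. For clu they were dnm2a, coq8aa and atraid (r from 0.983 to 0.987). Their differences were -0.26, -0.19 and -0.22, a direction that follows from selection in the same way. For appa they were arhgap10, arfip2a and slc37a2 (0.984 to 0.993) and for bace1 zw10, slc10a3 and prrc1 (0.948 to 0.981). For bace2 they were ptcd3, rhoaa and gpc1a (0.979 to 0.980), although bace2 itself was at background.

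The authors' deposited table of altered probes holds 180 entries, with log2 ratios of at least 0.585 in size and p-values up to 0.0498, and 0 of the 11 targets are among them. The same holds for the 74 targets through which the genes of the lists were read. Other targets of those genes were not looked up.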

How the data were processed

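The deposited per-array tables give 1 intensity per target on a linear scale, made by the authors with RMA (no version is stated), per the submitters' processing notes. RMA corrects background, quantile-normalises arrays and summarises probes. The deposited series value table gives the intensity of single probes. The authors' deposited list of altered probes gives log2 ratios and p-values (their test is not stated) and was used only to look up targets of the members and lists.

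The log2 of each intensity was tested with limma 3.58.1 (R 4.3.3), lmFit and eBayes, 2-sided, 3 lead against 3 control arrays, no covariate and no filter, Benjamini-Hochberg adjusted over all targets or all probes. Simulated data were used to check the scripts. The number of arrays limits the precision. Named genes were all targets of the 5 genes; per list the 4 smallest p-values; 14 further pathway genes where measured; the 3 most correlated genes per member; and, for background, single list genes chosen after their values were seen (vldlr, aplp2, psenen, vps35, apoa4b.1). The members and lists were chosen with earlier results of these data known. Matching by accession or clone name, and reading list genes through human homologue names, were decided after the files were seen. Starts of target kinds whose starts include 0 in the files were taken as counted from 0 and raised by 1. One pathway gene that the rule names is not reported here. Alternatives were other covariates, normalizations, summaries, filters, weights and variance models, and arrays left out. No sequences are shown, as no probe or gene sequence was used here.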

Additional observations from a re-analysis of the deposited data

How the results depend on the processing

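No member target passed the adjusted threshold under the 15 alternatives run for targets. Nor did any member probe under its alternatives (replicate block, prefix block, centring, an array left out) or pathway gene under its own (replicate block, series value table, mean of all targets, an array left out). Across 15 alternatives the apoeb 1 difference kept its direction, from -0.95 to -0.47 (adjusted p 0.264 to 1). So did clu 1 (-0.25 to -0.14), clu 2 (-0.20 to -0.01), appa 2 (-0.10 to -0.02) and bace1 (0.18 to 0.51). The same held for bace2 1 (-0.70 to -0.34) and bace2 2 (-0.60 to -0.17). Blocks, the filter and the other variance model leave each difference unchanged by construction. The groups of apoeb 1 and clu 1 do not overlap, so leaving out or weighting arrays cannot turn their signs. Only the series value table, repeated quantile normalization and centring could have turned these. Leaving out the dimmer 50% of targets gives no value for apoeb 2 and the 3 bace2 targets. Whether the replicate numbers pair the samples could not be decided, since each group has only 3 arrays. The same-number correlations were -0.148, 0.142 and 0.263, and no lead array but lead 3 correlated best with its own number. Lead 1 and control 1 share the missing image name prefix. With the replicate block apoeb 1 stayed at -0.74 (unadjusted p 0.00453), 2 targets and 7 probes were at unadjusted p under 0.05, against 1 and 4. That count of targets was 2 with arrays centred on random-sequence probes, 0 when the image name prefix was a block, 3 with array weights and 0 in the 4 arrays with the prefix, the last chosen after seeing the data. Leaving out single arrays gave 0 to 3 targets, 2 to 6 probes and 2 to 11 pathway genes (from 4), highest without lead 2. Differences near 0 turned sign. appa 1 (0.03) was -0.03 with the series value table, -0.10 in the 4 arrays with the prefix and -0.04 to 0.10 with an array left out. appa 3 (-0.01) was 0.01 with repeated quantile normalization, 0.01 with centring, 0.05 with array weights and -0.08 to 0.08 with an array left out. bace2 3 (-0.05) was 0.12 in the 4 arrays and -0.24 to 0.06 with an array left out, and apoeb 2 (-0.13) was -0.36 to 0.04. Of 317 pathway values 7 turned sign: LRP8 to 0.32, rtn4b to -0.09 and cd2ap to 0.02 with the series value table, and with an array left out apodb (-0.03 to 0.29), adam10b (-0.08 to 0.10) and c1qa (-1.37 to 0.34). The cause was not tested. With the series value table LPL was -1.09, PSEN2 0.32 and gga1 0.21, none at unadjusted p under 0.05 in limma (0.0587, 0.0902 and 0.226).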
